A study of Homo sapiens with 8 samples.

Results

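The response of wild-type (WT) KBM7 cells to IFN-gamma was read from 2 of the 8 arrays of the series, the stimulated WT array and WT replicate 1, the unstimulated array that the labels name as its control. KBM7 is a near-haploid line from a chronic myeloid leukaemia. WT cells in log phase growth received IFN-gamma at 100 ng/ml for 6 hours or were left untreated, and RNA from bulk culture was hybridised to Affymetrix PrimeView arrays. Every probe set with a gene name whose highest log2 intensity over the 8 arrays reached 6 was kept, which gave 25726 of the 49395 features on the array. Of these, 24760 carry the name of 1 gene (11534 genes in all) and 966 the names of several. WT replicate 2, the untreated array of the TNF-alpha experiment, served as a second control. A gene-trap mutant without JAK2 expression, untreated or given the same dose of IFN-gamma for 6 hours, supplied a pair of arrays that shares none with the WT comparison. The level filter also read WT cells and a TNFRSF1A gene-trap mutant with TNF-alpha (10 ng/ml, 6 hours), and that mutant untreated. Each condition has 1 array except unstimulated WT, so calls here rest on size alone, and a limma fit with p-values is only an alternative in the closing section. A probe set is called raised or lowered by the size of its log2 difference, and 2-fold is a difference of 1. In a gene-trap line, effects of the trap and other differences of the line cannot be told apart. The labels do not say whether the untreated WT arrays came from separate cultures.

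IFN-gamma binds a receptor whose chains carry the kinases JAK1 and JAK2. The kinases phosphorylate a STAT protein, which moves to the nucleus as a dimer and binds palindromic gamma-activated sites (GAS) in promoters. IRF1, a transcription factor among the early targets, and its relatives bind a second element of repeated GAAA letters and extend the response to genes of antigen presentation, antiviral defence and chemokine secretion. In myeloid cells the cytokine is known for activating macrophage functions.

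The elements can be seen in promoters of raised genes. The promoters of CXCL10 and IRF1 are shown whole because CXCL10 had the largest rise and IRF1 is the factor that carries the response forward. Both are RefSeq sequence of GRCh38.p14, on the minus strand, from 250 bases before to 50 bases after the transcription start, with matches to GAS (TTCNNNGAA) or to the IRF element (GAAANNGAA, or TTCNNTTTC on the other strand) in capitals.
CXCL10, chr4:76023448-76023747: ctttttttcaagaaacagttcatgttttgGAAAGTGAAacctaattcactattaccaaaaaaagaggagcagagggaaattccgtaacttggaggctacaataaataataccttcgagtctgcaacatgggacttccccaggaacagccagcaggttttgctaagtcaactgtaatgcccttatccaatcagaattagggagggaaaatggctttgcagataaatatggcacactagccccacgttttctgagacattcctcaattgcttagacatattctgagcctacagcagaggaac
IRF1, chr5:132490724-132491023: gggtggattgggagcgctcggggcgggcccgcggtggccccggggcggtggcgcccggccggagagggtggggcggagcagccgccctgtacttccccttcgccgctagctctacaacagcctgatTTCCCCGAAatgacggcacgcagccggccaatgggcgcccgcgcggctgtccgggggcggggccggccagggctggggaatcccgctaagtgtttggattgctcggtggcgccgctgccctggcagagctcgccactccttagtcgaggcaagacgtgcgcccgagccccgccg
CXCL10 held an IRF element that begins 221 bases before its start, and IRF1 held a GAS that begins 124 bases before its start. Short windows of other named raised genes follow, DDX60 and IFIT5 being raised by less than 2-fold, chosen because each holds at least 1 of the 2 motifs, again with the match in capitals.
TAP1 GAS, chr6:32852932-32852960 (minus strand), first capital 189 bases before the start: gtagcgtgggTTCTGGGAAatgtggagca
CXCL11 GAS, chr4:76036292-76036320 (minus strand), first capital 240 bases before the start: ttaaatggatTTCTAGGAAaagctacctt
GBP1 IRF element, chr1:89065316-89065344 (minus strand), first capital 126 bases before the start: acgaagtactTTCAGTTTCatattactct
GBP3 IRF element, chr1:89022845-89022873 (minus strand), first capital 4 bases after the start: aagaagtactTTCAGTTTCattaggctct
GBP4 IRF element, chr1:89198927-89198955 (minus strand), first capital 3 bases before the start: tgcatgtcctTTCAATTTCggttctcaca
IFIT3 IRF element, chr10:89327866-89327894 (plus strand), first capital 121 bases before the start: ttaaattagtTTCACTTTCcagtttcctc
PARP9 IRF element, chr3:122564322-122564350 (minus strand), first capital 40 bases before the start: ggcgcaaagtTTCAGTTTCgcttccctgg
TNFSF10 IRF element, chr3:172523598-172523626 (minus strand), first capital 186 bases before the start: aggagcttctTTCAGTTTCcctcctttcc
DDX60 GAS, chr4:168318858-168318886 (minus strand), first capital 124 bases before the start: atgctaaactTTCCACGAAagtgcctcgc
DDX60 IRF element, chr4:168318822-168318850 (minus strand), first capital 88 bases before the start: gtgctgaaggGAAACTGAAacctaagtgc
IFIT5 IRF element, chr10:89414514-89414542 (plus strand), first capital 44 bases before the start: tctattaagtTTCGGTTTCtgaagcttac
GBP1, GBP3, PARP9 and TNFSF10 carry the same 9 letters, TTCAGTTTC, which IFIT5 also holds 3 bases before its start. DDX60 and GBP3 carry both motifs, GBP3 with a GAS that begins 15 bases before its start.

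IFN-gamma raised a short list of genes steeply, raised a longer list by less than 2-fold and lowered little. Against replicate 1, 151 probe sets of 79 genes were raised 2-fold (0.587% of those compared) and 1 was lowered 2-fold (0.00389%). Against both controls 117 probe sets of 61 genes were raised 2-fold (0.455%), and none was lowered 2-fold. The 117 had a median log2 difference of 1.66 against replicate 1 and 1.94 against replicate 2, and these figures share the stimulated array. The same cytokine raised 48 probe sets 1.5-fold in the JAK2 mutant (0.187%) and lowered 57 (0.222%), where none was raised 2-fold. The 117 had a median of 0.24 in that pair, and 103 of them lay above 0 there, as did 13981 of all 25726 probe sets. In RNA of bulk culture, fewer cells of a kind and less RNA per cell cannot be told apart.

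**Figure D1:**
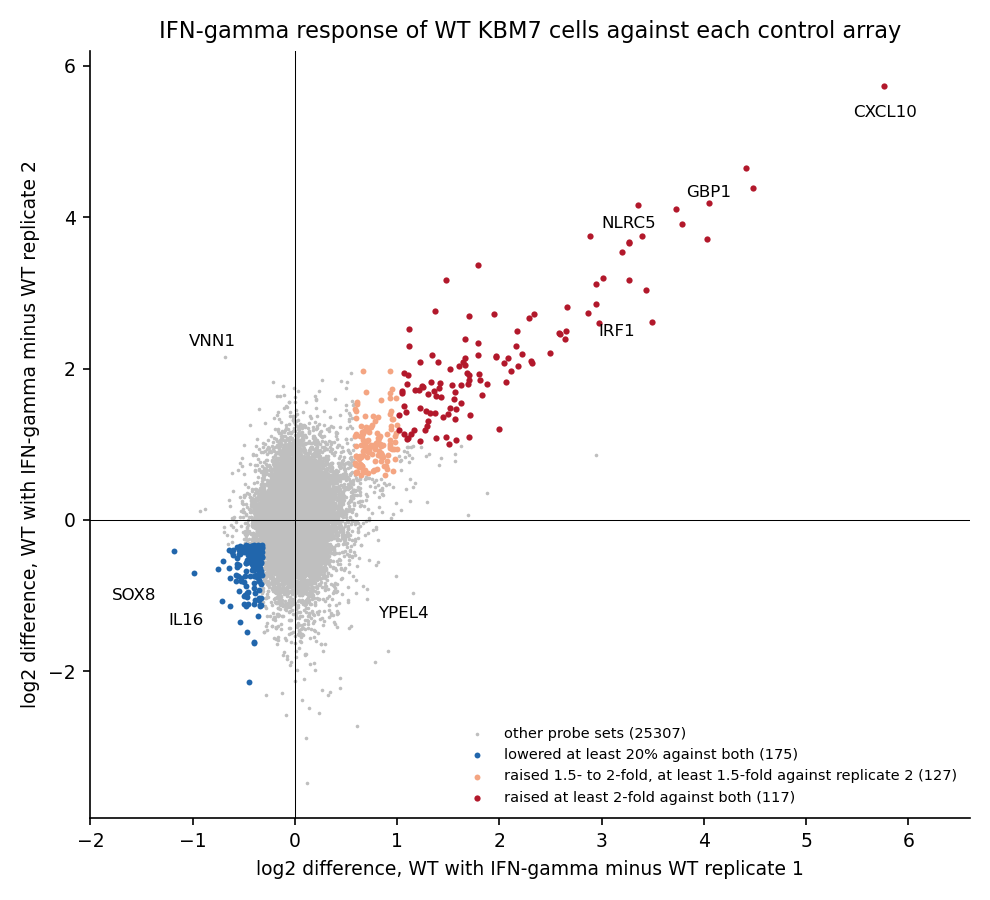
Log2 difference of the stimulated WT array from WT replicate 1 (x axis) and from WT replicate 2 (y axis), with 1 point for each of the 25726 probe sets; both axes share the stimulated array. The 117 red points lie along a diagonal that ends at CXCL10, whereas the cloud of other points is taller than it is wide.

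The untreated arrays set the scale of the spread. Replicate 2 was 2-fold higher than replicate 1 at 366 probe sets (1.42%) and 2-fold lower at 261 (1.01%), with an SD of 0.40 over probe sets. The SD of the response was 0.23 against replicate 1, 0.42 against replicate 2, and 0.16 in the JAK2 mutant pair. Median intensities ran from 63.9 to 66.9 over the 8 arrays, and the upper quartile of the array's background features lay between 5.76 and 6.04 on the log2 scale. The ratio of 3' to 5' actin signal was 4.41 on replicate 1, 4.81 on the stimulated WT array and 3.27 on replicate 2, and its part in the differences between controls was not tested. JAK2 itself read 6.28 and 6.38 on WT replicates 1 and 2 and 5.08 on the untreated JAK2 mutant. Of 11 marker genes of the myeloid line, 7 read above 6 on the 3 WT arrays, among them MYB (11.57 on replicate 1), KIT, CD34 and LYZ. SPI1, ELANE, AZU1 and PRTN3 read below 6 there. Of 5 monocyte and macrophage markers, CD14, CD163, MRC1 and FCGR3A read below 6 there and CD68 above (7.30, 7.84 and 7.37). Among markers of other lineages CD3D of T cells (9.33 on replicate 1), PAX5 of B cells (9.31) and KRT18 of epithelia (10.77) were bright, with 9.31, 9.30 and 10.47 on the stimulated array. The T cell markers CD3E, CD3G, CD2 and CD8A read below 6 on the 3 WT arrays. So did MS4A1 of B cells and COL1A1, COL3A1, EPCAM and CDH1 of fibroblasts and epithelia. CD79A of B cells read 6.37 on replicate 1. The part of other cell types in the response was not tested.

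The 5 markers of the response were all raised against both controls. CXCL10, a chemokine that draws activated T cells, read log2 5.51 and 5.53 on WT replicates 1 and 2 and 11.27 after IFN-gamma. Its intensity went from 45.6 and 46.3 to 2470, which is 54.1-fold over replicate 1, and its untreated values lay below log2 6. With those set to 6, the difference is at least 5.27. IRF1 stood at 8.88 and 9.02 untreated and at 11.75 with the cytokine, differences of 2.87 and 2.73. TAP1, a subunit of the transporter that carries peptides to MHC class I, went from 9.95 and 10.10 to 12.60. NLRC5, which switches on MHC class I genes, went from 7.63 and 6.77 to 10.52, so that its rise was 2.88 or 3.75 depending on the control. GBP5, a GTPase that takes part in inflammasome assembly, read 7.43 and 7.83 untreated and 10.86 stimulated. In each of the 5 the stimulated array lay far above both untreated ones, and the gap between controls was at most 0.87. In the JAK2 mutant pair their differences ran from 0.42 (TAP1) to 0.87 (NLRC5).

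Guanylate-binding proteins, large GTPases that attack pathogen vacuoles, had the highest list median, 3.11 over 6 genes against -0.02 over all 11534 genes. Of the 6, 5 were raised 2-fold, where 0.607% of all genes were. Against both controls 4 of the 6 were raised 2-fold, beside 54 (0.468%) of all genes. GBP1 read 5.04 and 4.66 untreated and 8.77 stimulated, at least 2.77 with the untreated values set to 6. GBP3 went from 6.16 and 6.27 to 9.43, and GBP4 from 6.74 and 6.58 to 9.40. These untreated values nearly coincided, and the rises of 3.27 and 2.66 against replicate 1 differed from those against replicate 2 by at most 0.16. GBP2 read 5.68 on replicate 1 but 7.76 on replicate 2, so its stimulated level of 8.63 was a rise of 2.95 or of 0.86. IRGM, an immunity GTPase of another branch, read 6.39, 6.94 and 6.44 on replicate 1, replicate 2 and the stimulated array, inside the gap between controls.

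**Figure D2:**
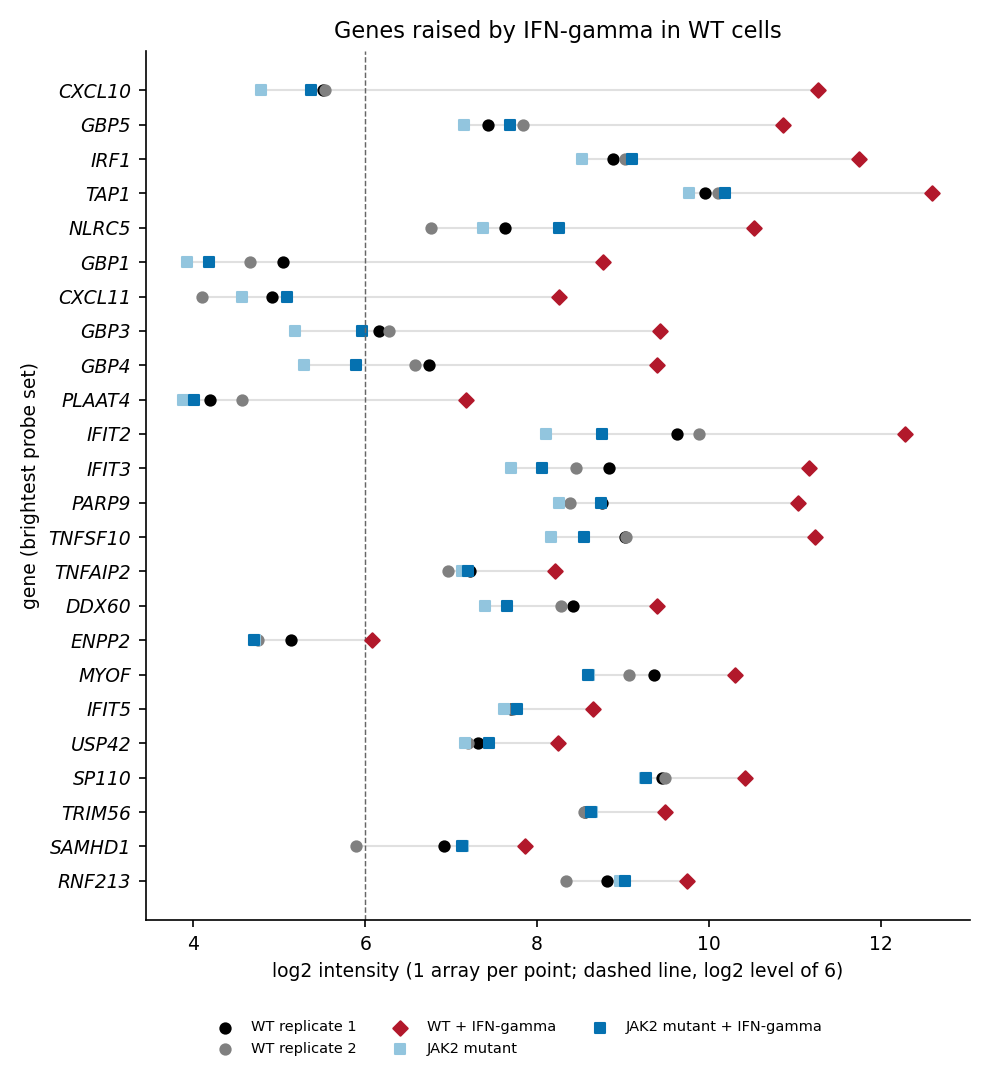
Log2 intensity of the 24 named raised genes on the 5 arrays of WT and JAK2 mutant cells, with 1 point an array and no error bars because conditions have 1 array. The red diamonds of stimulated WT cells lie to the right of every other point in each line, from the widest gap in CXCL10 to gaps of less than 1 in the lower 10 genes.

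Among the receptor and its relay, levels moved little. Of 13 genes of this list, 0 were raised 2-fold and 1, STAT3, lay between 1.5-fold and 2-fold, at 10.04 and 9.83 untreated and 10.82 stimulated. IFNGR1 and IFNGR2, the receptor chains, differed by -0.20 and -0.10 from replicate 1, and JAK1 by -0.04. JAK2 stood 0.54 above replicate 1 and 0.43 above replicate 2, and STAT4 0.40 and 0.67. The list's median was 0.09 against replicate 1 and -0.10 against replicate 2.

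Of the inhibitors that end the signal, SOCS1 depended on its control. This inhibitor of JAK kinases read 7.84 on replicate 1, 9.36 on replicate 2 and 9.72 on the stimulated array, a rise of 1.88 or of 0.36. TRIM21, a ubiquitin ligase and antibody receptor, rose by 0.59 and 0.85. The other 4 of the 6 (SOCS2, CISH, PTPN1 and PIAS1) stood less than 25% above and less than 20% below replicate 1, and the list's median turned from 0.11 to -0.13 with replicate 2.

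Transcription factors of the pathway stood higher as a list, with a median of 0.75 over 16 genes against replicate 1 and 0.92 against replicate 2. IRF1, NLRC5, CIITA, IRF9 and IRF7 were raised 2-fold against both controls. CIITA, the master transactivator of MHC class II genes, went from 6.40 and 6.49 to 8.29, a rise of 1.88 against replicate 1. The mean of its 2 probe sets was 1.00. IRF9, the DNA-binding partner of STAT proteins in the complex used by type I interferon, went from 7.78 and 7.53 to 9.31. IRF7 went from 8.93 and 8.87 to 10.29, with no rise in the JAK2 mutant pair (-0.07). All of these levels had controls within 0.24 of each other except NLRC5. A further 4 genes of the list lay between 1.5-fold and 2-fold, where 0.772% of all genes did: SP110 (0.97), SP100 (0.85), IRF2 (0.84) and SP140L (0.66). SP100, a scaffold of nuclear bodies, read 9.56 on replicate 2, so that it stood only 0.10 above that array. IRF3 (0.02) and IRF5 (-0.04) stood close to replicate 1.

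Of 10 secreted effectors, 4 were raised 2-fold, all of them against both controls (0.468% of all genes). CXCL11, a chemokine for the same receptor as CXCL10, read 4.91 and 4.10 untreated and 8.26 stimulated, a rise of at least 2.26 from a level of 6. TNFSF10 encodes TRAIL, the death ligand, and went from 9.02 and 9.04 to 11.23. IL12A, a chain of interleukin 12, read 5.73 and 5.74 untreated and 6.83 stimulated. CCL5, a chemokine for T cells and monocytes, already read 8.75 and 9.14 untreated and 8.65 with the cytokine. After TNF-alpha, CXCL10 read 11.98 and GBP1 read 4.69 in WT cells. That array stood above replicate 2 by 1.66 for CXCL11, 1.49 for TNFSF10, 1.17 for GBP5, 0.69 for GBP4 and 0.54 for GBP3. GBP1 (0.02), NLRC5 (-0.11) and PLAAT4 (-0.15) did not share this. Over the 117 probe sets raised 2-fold against both controls the median after TNF-alpha was 0.21.

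Of 16 genes of MHC class I presentation, 6 were raised 2-fold (0.607% of all genes) and 5 of those against both controls (0.468%): NLRC5, TAP1, TAP2, ERAP2 and HLA-E. HLA-E, the ligand of NKG2A, was the only heavy chain raised 2-fold among the 5 compared, from 10.82 and 11.34 to 12.40. HLA-F stood 0.36 and 0.41 above the controls, at a level below 6. HLA-B stood 0.17 above replicate 1 and 0.31 below replicate 2 (-0.31), and HLA-C 0.24 above and 0.15 below (-0.15). B2M, the light chain, read between 14.35 and 14.47 on the 3 WT arrays, near the top of the intensity range. TAP2, the partner of TAP1, went from 8.68 and 7.88 to 9.79. ERAP2, a peptidase that trims peptides in the endoplasmic reticulum, went from 7.37 and 7.48 to 8.94. TAPBPL, a peptide editor, rose by 1.04 against replicate 1 and 0.79 against replicate 2, and the mean of its 2 probe sets was 0.53 against replicate 1. TAPBP, the tapasin gene, and ERAP1, a second trimming peptidase, stood 0.15 and 0.38 above replicate 1. The chaperones CALR (-0.30), PDIA3 (-0.03) and CANX (-0.04) did not rise.

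Of 16 proteasome genes 1 was raised 2-fold (0.607% of all genes). PSMB9, a catalytic subunit of the immunoproteasome, went from 10.25 and 10.34 to 11.52, a rise of 1.28 and 1.18. Of the inducible genes, PSMB8 (0.85), PSMB10 (0.81) and PSME2 (0.69) lay between 1.5-fold and 2-fold against replicate 1, and PSME1 stood 0.21 above either control. The subunits that they replace, PSMB5, PSMB6 and PSMB7, differed from replicate 1 by -0.02, -0.07 and -0.04. Against replicate 2 those subunits stood higher by 0.41, 0.44 and 0.09, and all 16 genes lay above 0, where 47.5% of all genes lay below it. Constitutive genes such as PSMA3 (0.86), PSMA5 (0.78) and PSMA4 (0.73) also stood above replicate 2, beside PSMB8 (0.86), and the list median went from 0.24 to 0.65 with that control.

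Most MHC class II genes stayed near their untreated levels. Besides CIITA, HLA-DOB alone of 14 genes was raised 2-fold (0.607% of all genes), from 5.64 and 5.74 to 7.14. HLA-DRA read 12.45 and 13.00 untreated and 12.50 stimulated, and HLA-DRB1 read 9.76, 10.35 and 9.78 in the same order. HLA-DPA1, HLA-DPB1 and HLA-DQB1 likewise stayed within 0.16 of replicate 1, and CD74, the invariant chain, rose by 0.09. IFI30, a thiol reductase of antigen processing, rose by 0.45 and 0.72, and CTSS, a protease of the same route, by 0.36 and 0.38.

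Antiviral effectors ran from steep rises to values near 0. Of 25, 8 were raised 2-fold against both controls (0.468% of all genes), 5 lay between 1.5-fold and 2-fold (0.772%), 2 rose by 25% to 1.5-fold and 10 differed by less. IFIT2 went from 9.63 and 9.89 to 12.28 and IFIT3 from 8.84 and 8.45 to 11.17; both encode proteins that bind viral RNA. XAF1, a pro-apoptotic factor, went from 5.61 and 5.43 to 7.58, and RSAD2, which encodes viperin, from 8.83 and 9.06 to 10.40. IFI35 (1.39), IFIT1 (1.14), OAS1 (1.09) and RTP4 (1.57) completed the 8. OAS2 (0.05), OASL (0.13), HERC5 (0.06), IFI27 (-0.05), IFITM1 (0.07) and IFITM2 (0.03) stood less than 25% above replicate 1. IFITM1 and IFITM2 were bright in untreated cells, above 13.4 on each of the 3 WT arrays, whereas OAS2, OASL and IFI27 were dim.

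Of 12 nucleic acid sensors 4 were raised 2-fold and 2 against both controls, of 14 PARP genes 2 and 2, of 8 genes of the ISG15 system 2 and 1, and of 16 death and adhesion genes 4 and 4. Over all genes the shares were 0.607% and 0.468%. CASP1, the inflammasome protease, went from 6.50 and 6.12 to 8.17, and RIGI, a sensor of viral RNA, from 7.10 and 6.45 to 8.15. IFIH1, a sensor of long double-stranded RNA, and NOD2, a sensor of bacterial wall fragments, were raised by 1.08 and 1.01 against replicate 1 and by 0.83 and 0.85 against replicate 2. PARP9, an ADP-ribosyltransferase family member, and DTX3L, the ubiquitin ligase that binds it, rose by 2.29 and 1.42. PARP14 rose by 1.21 and PARP12 by 0.70, while PARP1 differed by -0.10. UBE2L6, the conjugating enzyme for ISG15, went from 10.74 and 10.88 to 11.85, and ISG15 itself rose by 0.67. FCGR1A, the high-affinity IgG receptor of activated myeloid cells, went from 8.10 and 7.11 to 9.80, and ICAM1, an adhesion molecule, from 7.15 and 6.98 to 8.17. The death and adhesion list depended on the control, with a median of 0.53 against replicate 1 and 0.02 against replicate 2. Below replicate 2 lay 8 of its 16 genes, close to the share of all genes (47.5%). FAS, the death receptor, stood 0.59 above replicate 1 and 0.46 below replicate 2 (-0.46). CASP10 and CASP4, a death and an inflammatory caspase, had 0.98 and 0.55 against replicate 1 but 0.23 and -0.06 against replicate 2. CD80, a costimulatory ligand, was lower than both, by -0.36 and -1.27, but the mean of its 4 probe sets was -0.06 against replicate 1.

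Of 11 genes of tryptophan, pteridine and other metabolism, 4 were raised 2-fold (0.607% of all genes) and 3 of those against both controls (0.468%). WARS1, the tryptophanyl-tRNA synthetase, went from 9.52 and 9.38 to 11.68. PLAAT4, a phospholipase-like tumour suppressor, read 4.19 and 4.57 untreated and 7.17 stimulated, at least 1.17 from a level of 6. LAP3, an aminopeptidase, went from 9.83 and 9.50 to 11.20, and GCH1, which opens the synthesis of tetrahydrobiopterin, rose by 0.64. CMPK2, a nucleotide kinase, had 1.09 and 0.97, but the mean of its 2 probe sets was only 0.35 against replicate 1. KYNU (0.14), CH25H (0.23), NAMPT (0.34) and ASS1 (-0.26) stood within 1.5-fold of replicate 1, where replicate 2 gave 0.72, -0.12, -0.11 and -0.87. All 5 genes of the APOL family, apolipoprotein L relatives, stood higher against both controls, as did 24% of all genes, and 4 were raised 2-fold (0.607% of all genes). Their median was 1.30 against replicate 1, with APOL6 at 1.99, APOL2 at 1.80, APOL3 at 1.30, APOL4 at 1.06 and APOL1 at 0.86. Genes such as NLRC5, CIITA, CASP1 and TNFSF10 stand in more than 1 list. IL12A, XAF1, RTP4, HLA-DOB and APOL2 read below 6 on both untreated arrays, near the background features, so the size of their rises is less certain than for brighter genes.

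**Figure D3:**
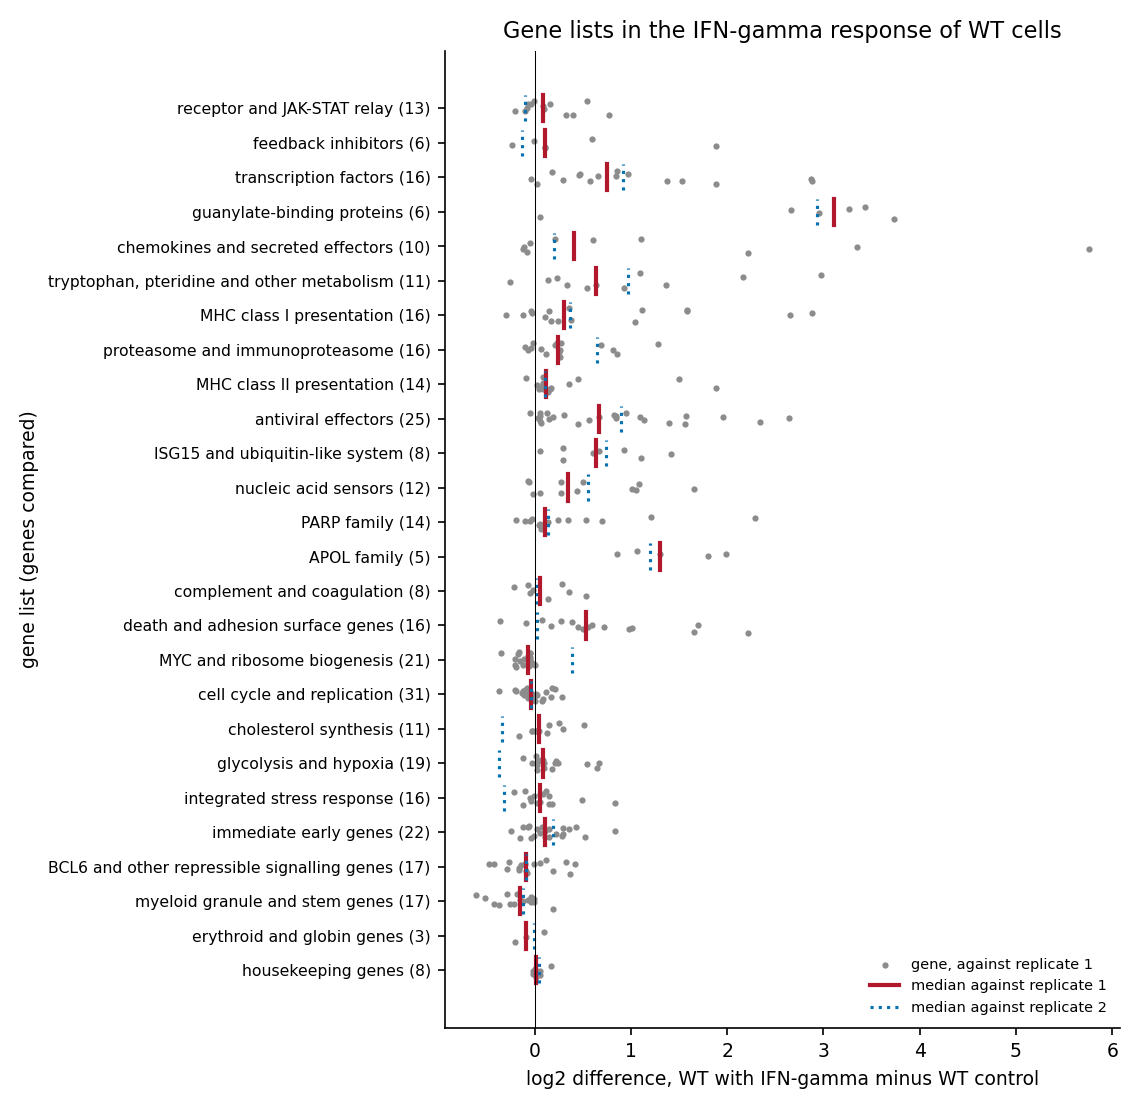
Log2 difference of stimulated WT from WT replicate 1 for the genes of 26 lists (grey points; numbers of genes in brackets), with the list median against replicate 1 (red line) and against replicate 2 (blue dotted line). The guanylate-binding proteins and the APOL family have the medians farthest right, and the 2 medians part most for lists such as MYC and ribosome biogenesis and glycolysis and hypoxia.

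Of 966 probe sets named for several genes, 5 were raised 2-fold against replicate 1 (0.518%, beside 0.587% of all probe sets) and 3 against both (0.311%, beside 0.455%). APOL1;APOL2 went from 7.52 and 7.77 to 9.84. OAS2;OAS3 read 5.46 and 4.73 untreated and 7.13 stimulated, while the brightest probe set of OAS2 alone rose by 0.05. FCGR1A;FCGR1BP, an IgG receptor gene and its pseudogene, went from 6.23 and 4.53 to 7.71. Probe sets of RUNX1;LOC100506403 differed among themselves, with 1.15 and -0.96 against replicates 1 and 2 at the probe set raised 2-fold, and with 0.66 and -0.04, and 0.60 and 1.44, at 2 others. VMP1;MIR21 had 1.09 and 0.41. A further 8 lay between 1.5-fold and 2-fold, including CASP1;CARD16 (0.93 and 0.97) and SOD2;SOD2-OT1 (0.98 and 0.81). None was lowered 1.5-fold, and the lowest difference was -0.49.

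Below 2-fold the response graded into the spread. Between 1.5-fold and 2-fold, 223 probe sets were raised (0.867%) and 29 were lowered (0.113%). The JAK2 mutant pair had 48 and 56 in this band. Between the untreated WT arrays, replicate 2 was higher by this much at 1145 probe sets and lower at 1369. Of the 223, 186 (83.4%) also stood above replicate 2 and 127 by at least 1.5-fold, while 37 stood below it. The next band held 732 probe sets raised by at least 25% and less than 1.5-fold, and 530 lowered by at least 20% and less than 1.5-fold, beside 670 and 605 in the JAK2 mutant pair. In that band replicate 2 was higher than replicate 1 at 2411 probe sets and lower at 3133. Of those 732, 472 (64.5%) lay above replicate 2 too. The excess of raised over lowered counts was plain in the band above 1.5-fold and small in the band below it, and in the lower band the counts were close to those of cells without JAK2.

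**Figure D4:**
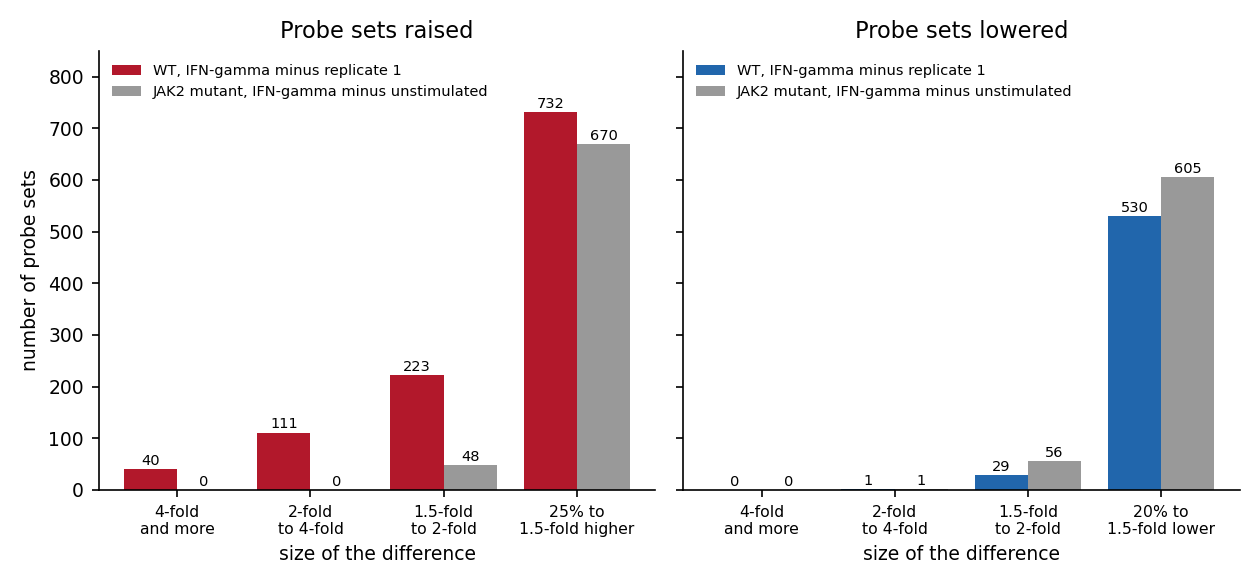
Number of probe sets by size of the difference, raised (left) and lowered (right), for stimulated WT against WT replicate 1 (coloured bars) and for the stimulated against the untreated JAK2 mutant (grey bars). Raised counts in WT exceed those in the mutant in each band above 1.5-fold, with 223 against 48 in the 1.5-fold to 2-fold band, and lowered counts do not. Counts between the untreated WT arrays are not drawn. They were larger than those of stimulated WT in every band except raised 4-fold and more, where they had 25 against 40. In the raised 2-fold to 4-fold band they had 341 against 111.

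The share of raised probe sets depended on their level. With a mean log2 value below 7, 145 of 7868 were raised (1.84%) and 20 lowered (0.254%) 1.5-fold against replicate 1. From 7 to 9 there were 156 (1.58%) and 9 (0.0912%) of 9864, and from 9 upward 73 (0.913%) and 1 (0.0125%) of 7994. The JAK2 mutant pair had 35 and 45, 11 and 12, and 2 and 0 in these ranges. The excess of rises thus stood in all 3 ranges. Of the 30 falls, 29 came from levels below 9, while 7994 of the 25726 probe sets lay at 9 or above. Of the 117 probe sets raised 2-fold against both controls, 40 were below 6 on both untreated arrays, and 98 remained 2-fold after values below 6 were set to 6.

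Among the 127 probe sets, of 82 genes, raised between 1.5-fold and 2-fold against replicate 1 and at least 1.5-fold against replicate 2, the medians were 0.77 and 0.98 and the JAK2 mutant pair had 0.10. The 10 highest genes, ranked by the smaller of both differences, were these. DDX60, a helicase that aids sensing of viral RNA, went from 8.42 and 8.28 to 9.40. IFIT5, a relative of IFIT2, went from 7.70 and 7.72 to 8.65. TRIM56, a ubiquitin ligase of antiviral signalling, went from 8.56 and 8.54 to 9.49. In these genes the controls differed by at most 0.13 and the stimulated array stood more than 0.9 above both. SP110, a nuclear body protein, went from 9.45 and 9.49 to 10.42. RNF213, a large ubiquitin ligase, went from 8.81 and 8.34 to 9.74. SAMHD1, which breaks down deoxynucleotides, read 6.92 on replicate 1, 5.89 on replicate 2 and 7.86 stimulated, so its rise was 0.93 or 1.96. MYOF, a membrane repair protein, went from 9.36 and 9.07 to 10.30, and USP42, a deubiquitinase, from 7.31 and 7.19 to 8.24. TNFAIP2, a gene named for induction by TNF-alpha, went from 7.22 and 6.96 to 8.21, and its other probe set differed by -0.17. ENPP2, which encodes the enzyme autotaxin, read 5.14 and 4.75 untreated and 6.08 stimulated; against a level of 6 its rise is only at least 0.08. TRIM56, MYOF, SAMHD1 and ENPP2 each had -0.01 in the JAK2 mutant pair, and the others of the 10 ran from 0.03 (SP110) to 0.29 (USP42).

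The lowered side was short and shallow. Against replicate 1 the only fall of 2-fold was a probe set of RAP1A, a small GTPase, which read 5.65 and 4.88 untreated and 4.47 stimulated. All 3 values lay below 6, and the probe set passed the level filter through the mutant clones (8.84 in untreated JAK2 mutant cells). Against both controls 6 probe sets were lowered 1.5-fold (0.0233%), those of SOX8, DEXI, IL16, IP6K2, CDC37L1 and PTCH1, and 3 of the 6 remained at least 20% lower after values below 6 were set to 6. Lowered by at least 20% against both were 175 probe sets of 153 genes (0.68%), beside 596 raised by at least 25%. Their medians were -0.39 and -0.54, and -0.03 in the JAK2 mutant pair. Of the 175, 55 were below 6 on the stimulated array, and 125 remained at least 20% lower against both with values below 6 set to 6.

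SOX8, a transcription factor of the SRY family, read 6.54 and 6.25 untreated and 5.55 stimulated, a fall to below 6. DEXI went from 8.22 and 8.11 to 7.47, and its second probe set fell by 0.29 and 0.38. DEXI lies beside CIITA on chromosome 16 in the RefSeq gene order, and was the only 1 of the 84 lowered genes (by the brightest probe set) next to a gene raised 2-fold against both. The share of all genes lying next to such a gene was not counted. IL16, a cytokine that attracts CD4+ cells, went from 7.09 and 7.59 to 6.45. PLEC, which encodes the cytoskeletal linker plectin, went from 8.63 and 8.87 to 8.06, and NRARP, a feedback regulator of Notch signalling, from 9.09 and 9.28 to 8.53. LRRC75B went from 7.38 and 7.41 to 6.82, with controls that nearly coincided. SMAD6, an inhibitor of BMP signalling, went from 7.88 and 7.71 to 7.17, but its other probe set differed by only -0.11 and 0. KIT, the receptor for stem cell factor, went from 7.95 and 8.23 to 7.43. SMAD6 and KIT also read low after TNF-alpha, at 7.12 and 7.66, which is 0.59 and 0.57 under replicate 2 (-0.59 and -0.57), a control shared with the second comparison above. SMIM14 went from 6.39 and 7.21 to 5.85, with a gap of 0.81 between controls, and its other probe set differed by -0.09 and -0.57. PROC, which encodes the anticoagulant protein C, went from 6.22 and 6.47 to 5.70. Both genes ended below 6. In the JAK2 mutant pair the 10 genes differed by between -0.26 (IL16) and 0.04 (KIT).

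**Figure D5:**
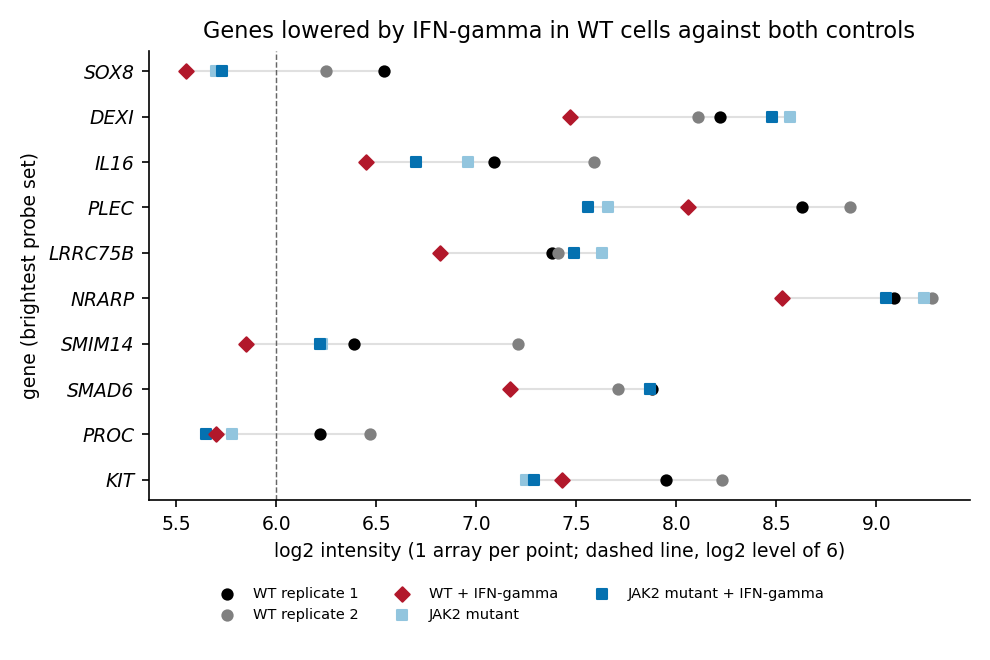
Log2 intensity on 5 arrays of the 10 genes with the largest falls against both WT controls, with 1 point an array and no error bars. The red diamonds of stimulated WT cells lie to the left of both WT controls in each line, by 0.52 to 0.99 from replicate 1, and SOX8, SMIM14 and PROC end below the dashed level of 6.

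Myeloid granule and stem genes stood slightly low as a list. Of 17, 16 lay below replicate 1, beside 57.8% of all genes, and 12 below replicate 2, beside 47.5%. All 12 were below both, whereas 29.4% of all genes were. Among the 12, CSF3R and CSF1R differed by only -0.04 and -0.01 each. PRTN3 read 5.35 on replicate 1 and passed the level filter through the JAK2 mutant (6.81 untreated). The list's medians were small, -0.15 and -0.12. GFI1B, a repressor needed in erythroid and megakaryocytic cells, read 7.18 and 7.03 untreated and 6.57 stimulated, and was the only member lowered 1.5-fold against replicate 1, where 0.139% of all genes were. MYB, a transcription factor of progenitors, went from 11.57 and 11.41 to 11.20. CEBPA, a factor of granulocyte development, turned with the control, at -0.42 and 0.41.

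Other lists moved with the choice of control. All 21 genes of MYC and ribosome biogenesis lay at or below replicate 1, down to -0.35, with a median of -0.07, and 19 lay above replicate 2, where the median was 0.39. Over all genes, 57.8% lay below replicate 1 and 47.5% below replicate 2. MYC itself was lower than both, from 12.19 and 12.22 to 11.84. The median of glycolysis and hypoxia genes was 0.09 against replicate 1 and -0.37 against replicate 2, and that of cholesterol synthesis genes 0.04 and -0.34. ADM, EGLN3 (0.65 and -0.33) and ANKRD37 (0.54 and -0.42), all hypoxia-inducible, turned with the control, as did HMGCS1 (0.51 and -0.45) and IDI1 (0.29 and -0.47) of cholesterol synthesis. ODC1 and POLR1B of the MYC list had -0.20 against replicate 1, and 0.96 and 0.23 against replicate 2.

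The remaining lists held no gene raised 2-fold. Cell cycle genes had a median of -0.04 against either control, with CCND3, a cyclin, at -0.37 and 0.81 and CDKN1A, a cell cycle inhibitor, at 0.28 and -0.15. ATF3, a stress-induced factor in both the stress response and the immediate early lists, read 8.64 and 9.07 untreated and 9.47 stimulated. SLC7A11 (0.49 and -0.09) and DUSP5 (0.52 and -0.02) followed it in those lists. HES1, a target of Notch signalling, had -0.48 and 0.21, and PIM1, a kinase gene, 0.42 and -0.09. Of the complement genes, C1R had 0.53 and 0.18 and C1S 0.36 and 0.01. HBB (0.10) and ALAS2 (-0.20) of erythroid cells and TBP (0.17) and SDHA (0.06) of the housekeeping list stayed near replicate 1, and the housekeeping medians were 0.01 and 0.04.

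Single genes below 2-fold turned in the same manner. Of those that turned, YPEL4 (0.71), MVP (0.69) and ADM (0.67) had the largest rises from replicate 1. YPEL4 read 6.28 on replicate 1, 8.04 on replicate 2 and 6.99 stimulated, between the controls. ADM, which encodes the hypoxia-inducible peptide adrenomedullin, read 10.31, 11.85 and 10.97 in that order. MVP, the major vault protein, read 5.69, 6.40 and 6.39, and its other probe set differed by -0.12 and 0.12 from replicates 1 and 2. SLA, an adaptor of receptor signalling, read 7.74 on replicate 1, 6.68 on replicate 2 and 6.81 stimulated, VNN1, a pantetheinase, read 7.69, 4.85 and 7.0, and LDLRAD4, an inhibitor of TGF-beta signalling, read 6.73, 5.83 and 6.09. These 3 had the largest falls from replicate 1 among genes that turned.

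Other probe sets of the same genes were compared with replicate 1. Of the 61 genes raised 2-fold against both, 43 had several probe sets, and all 42 of their probe sets outside the group also stood above replicate 1, 39 of them by at least 25%, with a median of 0.91. For the graded genes 92 of 96 others (95.8%) stood above replicate 1 and 71 by at least 25%. Of all probe sets with 1 gene, 43.2% stood above replicate 1. For the 153 lowered genes 165 of 214 others (77.1%) stood below replicate 1, where 56.7% of all probe sets with 1 gene did, and 9 (4.21%) by at least 20%. For the 6 genes lowered 1.5-fold against both, 9 of 11 others stood below replicate 1 and 3 (27.3%) by at least 20%. Among all 25726 probe sets, 1.45% were raised 1.5-fold and a further 2.85% by at least 25%. Lowered 1.5-fold were 0.117%, and a further 2.06% by at least 20%. The raised, graded and lowered groups were cut at different folds, so their shares are not set against each other. Probe sets of a gene can share sequence and always share the arrays, so they are not replicates.

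The motifs shown at the start were counted in the promoters of each group. By the brightest probe set of each gene, 54 genes were raised 2-fold against both, and 40 of them had a promoter in the RefSeq table. Of these 40, 29 (72.5%) held a GAS or an IRF element, 13 (32.5%) a GAS and 20 (50%) an IRF element, where a promoter may hold both. Graded genes had either motif in 18 of 46 promoters (39.1%) and lowered genes in 6 of 62 (9.68%). Over all genes compared the share was 1122 of 9469 (11.8%), and over all 27305 promoters of the table it was 15.2%. A match of these letters is not a shown binding site, and both strands of 300 bases were searched. All 10 named rises with a promoter held a motif (GBP5, NLRC5, PLAAT4 and IFIT2 had none listed), as did DDX60, IFIT5 and SP110 of 8 named graded genes, and 0 of 8 named falls.

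Raised genes also lay side by side. Of 53 raised genes placed on chromosomes, 17 were next to another in the order of protein-coding genes. No matching share over all genes was counted, so this number has no background beside it. The 17 were GBP3 with GBP1 and GBP4 with GBP5 on chromosome 1, IFIT2 with IFIT3 on chromosome 10, and APOL3, APOL4 and APOL2 on chromosome 22. PARP9 with DTX3L on chromosome 3, CXCL10 with CXCL11 on chromosome 4, and HLA-DOB with TAP2 and TAP1 with PSMB9 on chromosome 6 completed the count. Of 53 graded genes placed, 2 adjoined each other (DDX60 and DDX60L on chromosome 4), and of 84 lowered genes 0 did.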

How the data were processed

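RNA of KBM7 cells was labelled and hybridised to 8 Affymetrix PrimeView arrays, per the labels' protocols. The authors deposited a normalized intensity for each probe set, and the submitters' processing notes name RMA and Affymetrix Expression Console 1.1. RMA equalises the arrays' distributions, so a shift of most genes would not show, and it compresses dim differences. The linear scale was inferred from the values, and log2 was taken with no pseudocount.

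Array controls (102) and 2473 features without a gene name were left out. Symbols were updated through the RefSeq gene table of GRCh38.p14, and promoters came from its promoter table. Some genes are not reported here. A gene's value is that of its brightest single-gene probe set. Values below log2 6 are near background, so some changes across that level are also given from 6. With 1 array a condition, counts rest on differences of 2-fold, 1.5-fold, or 25% up and 20% down, and precision is limited by the number of arrays. The 26 gene lists, the members and the tests were chosen with earlier results of these data known.

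Named were 5 markers, the 14 highest rises of 2-fold against both controls, the 10 highest graded rises, the 10 largest falls of 20% or more against both, the 3 largest rises and 3 largest falls that turned, multi-gene rises, and 2 to 4 members of each list with the largest differences. The markers are among the 14. Further list members, IP6K2, CDC37L1, PTCH1 and RAP1A were picked once their values were known.

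Alternatives were the control array, level filter, loess (span 0.3) or quantile normalization, probe set class or mean, values below 6 set to 6, other folds, and a limma 3.58.1 fit of the 7 conditions (R 4.3.3), with Benjamini-Hochberg adjustment. Counting and fitting were tested on simulated data with independent noise, smaller than the spread between the untreated WT arrays, and with changes only at bright probe sets. That test does not cover dim probe sets or a gap between controls. Other work used Python 3.11.15 with pandas 2.3.3.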

Additional observations from a re-analysis of the deposited data

Results flagged for a closer look

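By their brightest probe sets, YPEL4 and MVP moved in opposite directions in WT and JAK2 mutant cells given IFN-gamma. YPEL4 stood 0.71 above replicate 1 in WT cells and differed by -0.44 in the JAK2 mutant pair, and MVP by 0.69 and -0.55. The other probe set of MVP did not show this, with -0.12 in WT cells and -0.20 in the JAK2 mutant pair. MVP read 5.69 on replicate 1 and on the stimulated JAK2 mutant array, where YPEL4 read 5.75, all below 6. Each pair has 1 array a condition, so the difference between genotypes was not tested, and both genes lost their rise against WT replicate 2 (-1.05 and -0.02). Outside the named probe sets, 4 of 1150 probe sets without a gene name that reached log2 6 were raised 2-fold against both controls (0.348%), which is not above the 0.455% of named probe sets; 5 were raised against replicate 1 and 0 were lowered 2-fold. Replicate 2 was 2-fold above replicate 1 at 13 of them.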

How the results depend on the processing

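No paired test was possible because the stimulated WT array and replicate 1 form only 1 pair, and the main counts are differences within it. The counts of probe sets raised and lowered 2-fold, raised and lowered 1.5-fold to 2-fold, and raised 2-fold against both controls were 151, 1, 223, 29 and 117. With WT replicate 2 as the control the 4 former became 413, 301, 1317 and 1000, and with the mean of both 169, 14, 343 and 214. Without a level filter 53 were lowered 1.5-fold to 2-fold, and at a level of 8 the 5 counts were 100, 1, 136, 5 and 74. With values below 6 set to 6 none was lowered 2-fold (0). At 1.5-fold, 374 were raised, 30 lowered and 268 raised against both, and at 3-fold 68, 0 and 60. Loess, quantile normalization, single-gene probe sets and leaving out _x_at probe sets kept these counts within 1.5 times. Limma with adjusted p below 0.05 called 0 raised and 0 lowered (lowest adjusted p 0.0983); at an unadjusted p below 0.05 it had 299 raised and 15 lowered, among them all 117 probe sets raised against both and 15 of the 175 lowered by at least 20% against both. It has 1 residual degree of freedom and assumes that each single array varies as the untreated pair does. The fit also takes both untreated WT arrays as 1 condition, without the tie between replicate 1 and the stimulated array. The 117 and the 175 were picked by size against those same untreated arrays, at different folds. Their counts in the fit are therefore not separate support. The 175 became 116 and 49 at levels of 7 and 8, which were chosen after seeing the data. Of the 40 named genes, 6 turned direction with replicate 2: YPEL4 (-1.05), MVP (-0.02), ADM (-0.88), SLA (0.12), VNN1 (2.15) and LDLRAD4 (0.26). All 40 kept their direction under loess and quantile normalization. With the mean of a gene's probe sets 6 moved in size: IRF1 (3.29), NLRC5 (2.34), PLAAT4 (2.57), PARP9 (1.59), TNFAIP2 (0.41) and MVP (0.29). With values below 6 set to 6, 6 moved in size: CXCL10 (5.27), GBP1 (2.77), CXCL11 (2.26), PLAAT4 (1.17), ENPP2 (0.08) and SOX8 (-0.54). The cause of these moves was not tested, beyond the smaller numbers of probe sets compared at higher levels.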
